A study of Mus musculus with 3 samples.

Results

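The genes of rod phototransduction treated here were Gnat1, Gnb1, Pde6a, Pde6b, Pde6g, Cnga1, Sag, Pdc and Rcvrn. They were chosen by symbol: a probe set, the group of short probes that measures 1 transcript on the array, counted as theirs where the platform annotation gave it that symbol alone. This gave 13 probe sets for all 9 genes, of 12422 probe sets and 8251 named genes on the array. The values come from 3 Affymetrix U74Av2 arrays, each hybridised with total RNA from 1 pool of neural retinas of 3 to 4 mice, taken in the early afternoon. All pools were of 1 group: Rp1 knockout (Rp1-/-) mice at postnatal day 10, on a mixed 129/SvEv and C57BL/6 background. This genotype comes from the sample descriptions, which are the same for all arrays; the title of the array of pool 1 carries no rp1 tag, unlike the other two titles. The loss of Rp1 was not checked here, so a different genotype in pool 1 was not tested. No array of another genotype was analysed here, so nothing below compares knockout with control retina. The pools are numbered 1 to 3 as names only, and since the labels do not say whether pools shared animals or preparation, the spread between them may be partly technical.

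In rods, light-activated rhodopsin switches on the G protein transducin, whose alpha subunit is encoded by Gnat1 and whose beta subunit is encoded by Gnb1. Active transducin relieves the inhibitory gamma subunit (Pde6g) of phosphodiesterase 6, whose catalytic subunits (Pde6a and Pde6b) then break down cyclic GMP, and the cyclic nucleotide-gated channel, of which Cnga1 is a subunit, closes. Arrestin (Sag) ends the activity of rhodopsin, recoverin (Rcvrn) restrains rhodopsin kinase according to calcium, and phosducin (Pdc) binds transducin beta and gamma. Rod outer segments, where most of these proteins work, are still growing at this age. The Rp1 protein binds the microtubules of the axoneme in rods and cones.

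Of the 5 genes with a promoter window, Pde6b, Cnga1, Sag and Pdc had their highest signal in pool 2, whereas Gnb1 had it in pool 3. Pdc, whose window held no match to the motifs below, is not printed. The promoter stretches of the other 4 genes are shown. They are RefSeq sequences of build GRCm38.p6, read 5′ to 3′ along the gene's own strand, and cover the 250 bases before the transcript start. Capitals mark exact matches to 4 motifs on either strand: TAATCC (the core bound by the photoreceptor homeodomain factor Crx), TGCTGA (part of the site of Maf-family factors such as Nrl), TATAAA (the TATA box) and GGGCGG (the GC box).
Gnb1 (chr4:155491111-155491360, plus strand): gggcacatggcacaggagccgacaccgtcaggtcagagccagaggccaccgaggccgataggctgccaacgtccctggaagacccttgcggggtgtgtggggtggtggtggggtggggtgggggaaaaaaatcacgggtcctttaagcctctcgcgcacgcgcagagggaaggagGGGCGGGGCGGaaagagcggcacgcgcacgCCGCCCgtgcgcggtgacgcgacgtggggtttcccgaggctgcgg
Pde6b (chr5:108388123-108388372, plus strand): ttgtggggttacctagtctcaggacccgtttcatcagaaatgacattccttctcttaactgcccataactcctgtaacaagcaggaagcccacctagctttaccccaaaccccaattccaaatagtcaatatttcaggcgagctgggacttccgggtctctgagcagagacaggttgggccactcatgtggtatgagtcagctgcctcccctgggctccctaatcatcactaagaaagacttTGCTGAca
Cnga1 (chr5:72642753-72643002, minus strand): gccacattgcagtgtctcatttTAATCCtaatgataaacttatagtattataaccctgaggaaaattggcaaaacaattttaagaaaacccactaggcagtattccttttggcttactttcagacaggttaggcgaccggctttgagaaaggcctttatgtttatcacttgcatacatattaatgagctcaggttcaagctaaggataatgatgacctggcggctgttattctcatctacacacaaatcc
Sag (chr1:87803430-87803679, plus strand): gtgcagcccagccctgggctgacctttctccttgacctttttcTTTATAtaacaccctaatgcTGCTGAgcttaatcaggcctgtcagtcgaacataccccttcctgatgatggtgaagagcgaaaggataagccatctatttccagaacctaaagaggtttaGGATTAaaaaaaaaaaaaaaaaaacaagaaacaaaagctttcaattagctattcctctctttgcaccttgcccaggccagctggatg

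The Gnb1 window had the highest share of G and C among the 5 member windows, at 70.3%. Pde6b had 51.3%, Sag 44.7%, Cnga1 41.3% and Pdc 38.0%, against a median of 52.7% over all 32851 windows of the table. These shares and the searches refer to the whole window of 300 bases, which adds 50 bases after the start. The GC box was found in the Gnb1 window 4 times, with 2 of the matches overlapping at positions -75 and -70 from the start, and in none of the other 4 member windows. It occurred in 35.7% of all windows, and 5.49% of windows held 4 or more. TAATCC was found in the windows of Cnga1 and Sag, and in 7.06% of all windows. TGCTGA was found in those of Pde6b and Sag, and in 19.5% of all windows. TATAAA was found only in that of Sag among the 5 (all windows, 13.6%), and Pdc had no match to any of the 4. A match is a description of the letters and not a site of binding, and the promoter table used here gave a window for 5 of the 9 genes.

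**Figure D1:**
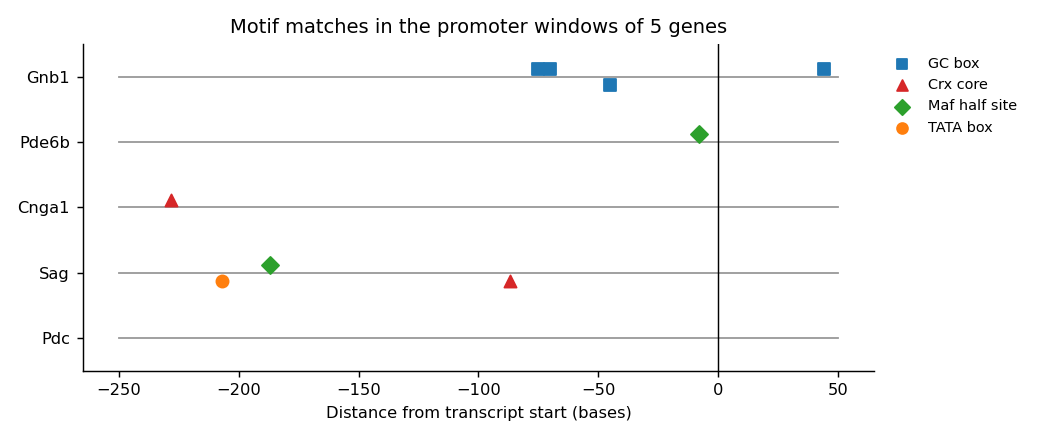
Positions of the motif matches in the promoter windows of Gnb1, Pde6b, Cnga1, Sag and Pdc. The horizontal axis is the distance from the transcript start in bases, each grey line is a window of 300 bases, and symbols above or below the line are matches on the gene's strand or the opposite strand. The 4 GC boxes all lie in the Gnb1 window.

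Values are deposited array signals in scaled intensity units, and the background floor of an array is the 90th percentile of its 19 control probe sets for bacterial and yeast transcripts. The floors were 100.48, 124.84 and 120.36 in pools 1, 2 and 3. The 9 genes each had a probe set above the floor in every pool, and where a gene had several sets the one with the highest mean signal represents it. Of the 13 sets, 12 had a mean above the mean floor and entered the test of spread; the exception was a second Pdc set. Signals of different probe sets are not read as relative amounts of transcript. Median signals of the arrays lay between 233.3 and 233.85, and the ratio of 3' to 5' signal, a measure of RNA integrity, ran from 0.75 to 0.9 for Gapdh and was 1.1, 1.4 and 1.63 for Actb in pools 1, 2 and 3.

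The rod genes stood highest in pool 2, with Gnb1 as the exception. Of the 9 genes, 8 had their highest signal in pool 2 (33.7% of all 8327 measured probe sets did), Gnb1 had it in pool 3 (32.2%), and none had it in pool 1 (34.1%). Pool 1 held the lowest signal of 7 genes (34.8% of all measured sets), and pool 3 that of Pde6a and Pde6b (31.8%). The descriptions put all pools in the same group, so this order describes 3 RNA samples and is no comparison of conditions; pool 1, the lowest for most of these genes, is the one whose title lacks the rp1 tag. A cause of this order was not tested. Fewer rods in a pool, less RNA per rod, RNA of other tissue and differences between arrays cannot be told apart in such samples.

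**Figure D2:**
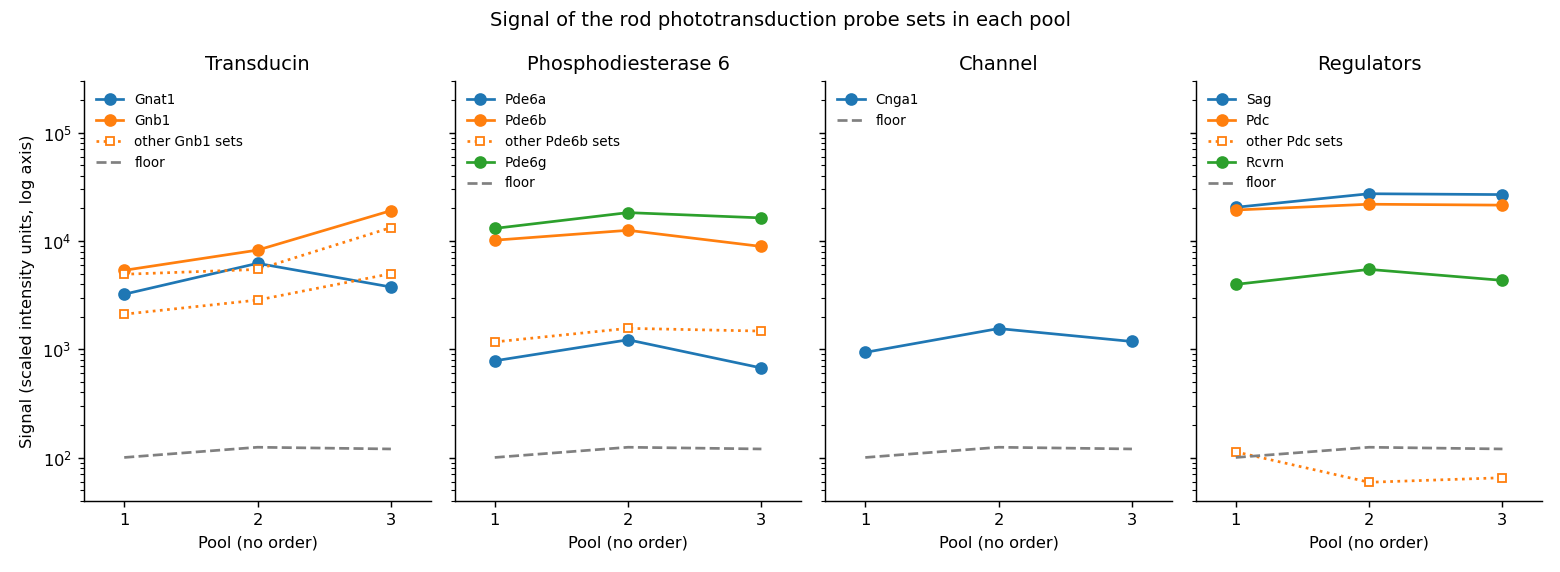
Signal in each pool for all 13 probe sets of the 9 genes, on a log axis in scaled intensity units, in 4 panels by role. Filled points are the set that represents a gene, open squares the gene's other sets, lines join the points of a set only to guide the eye, and the dashed line is the background floor of each array; the Gnb1 sets are highest in pool 3 and the other representative sets in pool 2.

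Gnat1, the alpha subunit of rod transducin, had signals of 3228.9, 6226.7 and 3765.6 in pools 1, 2 and 3. Pool 2 stood apart from the other two: it was 1.93-fold above pool 1 and 1.65-fold above pool 3, while pools 3 and 1 differed by 1.17-fold. The SD of its log2 signal was 0.50, against 0.22 for the trend at its signal. This did not pass the test of variability, in which the variance of a set over the pools is set against that of sets with like signal (limma, adjusted p = 0.83 by Benjamini-Hochberg over 8327 sets).

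Gnb1, whose product is the beta subunit of rod transducin and also serves other G proteins in many cell types, was read by 3 probe sets. The set with the highest mean gave 5367.5, 8246.0 and 19075.3 in pools 1, 2 and 3. Pool 3 was 3.55-fold above pool 1 and 2.31-fold above pool 2. Its SD of log2 signal was 0.93 against 0.20 for the trend, and it passed the test (limma, adjusted p = 0.042), as did 18 of all 8327 sets (0.216%). It was the 1 set of 12 tested for these genes that passed. At least 8 of the 18 were sets of lens genes, which were also highest in pool 3 and are given below. The second Gnb1 set gave 4934.2, 5467.4 and 13308.4 (adjusted p = 0.18, limma) and the last 2112.2, 2850.8 and 4996.4 (adjusted p = 0.59, limma). In each of the 3 sets pool 3 was the highest and pool 1 the lowest, and pool 3 exceeded pool 2 by 2.43-fold in the second and 1.75-fold in the last. These 2 sets cite the same source sequence in the annotation, so they are not separate measurements of it. The call rests on pool 3 and on how the variances are modelled: it was lost without pool 3 (adjusted p = 0.97), with an ordinary fit (0.46), without an intensity trend (0.98), with log2(signal + 16) in place of the floor (0.26), with a floor set at the control median (0.071), within the brightest 25% of sets (0.075) and after quantile normalization (0.052). It was kept without pool 1 (0.018), without pool 2 (0.018) and with no filter on mean signal (2.8e-06), so the 10 alternatives gave adjusted p from 2.8e-06 to 0.98 (limma).

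The ratio of Gnb1 to Gnat1 signal was highest in pool 3. On the log2 scale the Gnb1 signal less the Gnat1 signal was 0.73 in pool 1, 0.41 in pool 2 and 2.34 in pool 3, so their ratio ranged 3.83-fold. The same difference for Gnb1 less Pdc, whose product binds the beta and gamma subunits, was -1.85, -1.41 and -0.17, a range of 3.21-fold. Only the change of such a difference between pools can be read, not its size in a pool.

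Pde6a, a catalytic subunit of phosphodiesterase 6, had signals of 784.0, 1225.6 and 673.4 in pools 1, 2 and 3. Pool 2 was 1.56-fold above pool 1 and 1.82-fold above pool 3 (limma, adjusted p = 0.99). Pde6b, the other catalytic subunit, had 10177.2, 12563.7 and 8911.1, with the same order at a smaller range of 1.41-fold (limma, adjusted p = 0.99). These are the only 2 of the 9 genes that were lowest in pool 3. A second Pde6b set, of the f class whose probes can bind related transcripts, gave 1171.4, 1563.1 and 1475.2, in which pool 2 was again highest but pool 1 was lowest. The difference of Pde6a less Pde6b in log2 signal moved by 0.37 over the pools, a range of 1.29-fold in their ratio.

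Pde6g, the inhibitory subunit, had signals of 13079.7, 18298.3 and 16354.8. Pool 2 exceeded pool 1 by 1.40-fold and pool 3 by 1.12-fold (limma, adjusted p = 0.99). Against Pde6b its ratio ranged 1.43-fold over the pools, lowest in pool 1 and highest in pool 3. Cnga1, the rod channel subunit, had 938.4, 1556.4 and 1182.3, so that pool 2 was 1.66-fold above pool 1 and 1.32-fold above pool 3 (limma, adjusted p = 0.99).

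Sag, Pdc and Rcvrn encode proteins that quench or modulate the cascade. Sag (rod arrestin) had signals of 20486.2, 27334.3 and 26845.2 in pools 1, 2 and 3. Pools 2 and 3 were within 1.02-fold of each other, and pool 2 was 1.33-fold above pool 1. Pdc (phosducin) had 19346.5, 21872.6 and 21449.3, a range of 1.13-fold that was the smallest of the 9 genes. Its second set, of the r class chosen under relaxed rules, exceeded the floor only in pool 1, at 113.2 against 59.3 and 65.3 in pools 2 and 3, and is not read further. Rcvrn (recoverin) had 3980.8, 5474.0 and 4333.1, so that pool 2 was 1.38-fold above pool 1 and 1.26-fold above pool 3. None of the 3 passed the test (limma, adjusted p of 0.99 for Sag and Rcvrn and 1.0 for Pdc).

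Between pools 1 and 2 all 9 genes were lower in pool 1, as were 51.1% of all measured sets. The differences ran from -0.95 for Gnat1 to -0.18 for Pdc in log2 signal, with a median of -0.48 (all measured sets, -0.01). Gnat1, Gnb1, Pde6a and Cnga1 were lower by over 1.5-fold, a size that 13.3% of all measured sets passed in this direction, and none was lower by over 2-fold (3.52%). With 1 array on each side this carries no test.

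Between pools 2 and 3 the genes were higher in pool 2 for 8 of 9, against 50.5% of all measured sets. The median was 0.34 (all measured sets, 0.01), and 0.37 without Gnb1. Gnat1 and Pde6a passed 1.5-fold in this direction (11.0% of all measured sets), at 0.73 and 0.86. Gnb1 alone passed it the other way (9.25%), at -1.21.

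Between pools 1 and 3 the genes were lower in pool 1 for 7 of 9, against 51.0% of all measured sets. The median was -0.22 (all measured sets, -0.01). Pde6a and Pde6b were higher in pool 1, by 0.22 and 0.19. Gnb1, at -1.83, was the only 1 of the 9 beyond 1.5-fold (11.6% of all measured sets were lower in pool 1 by that much).

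**Figure D3:**
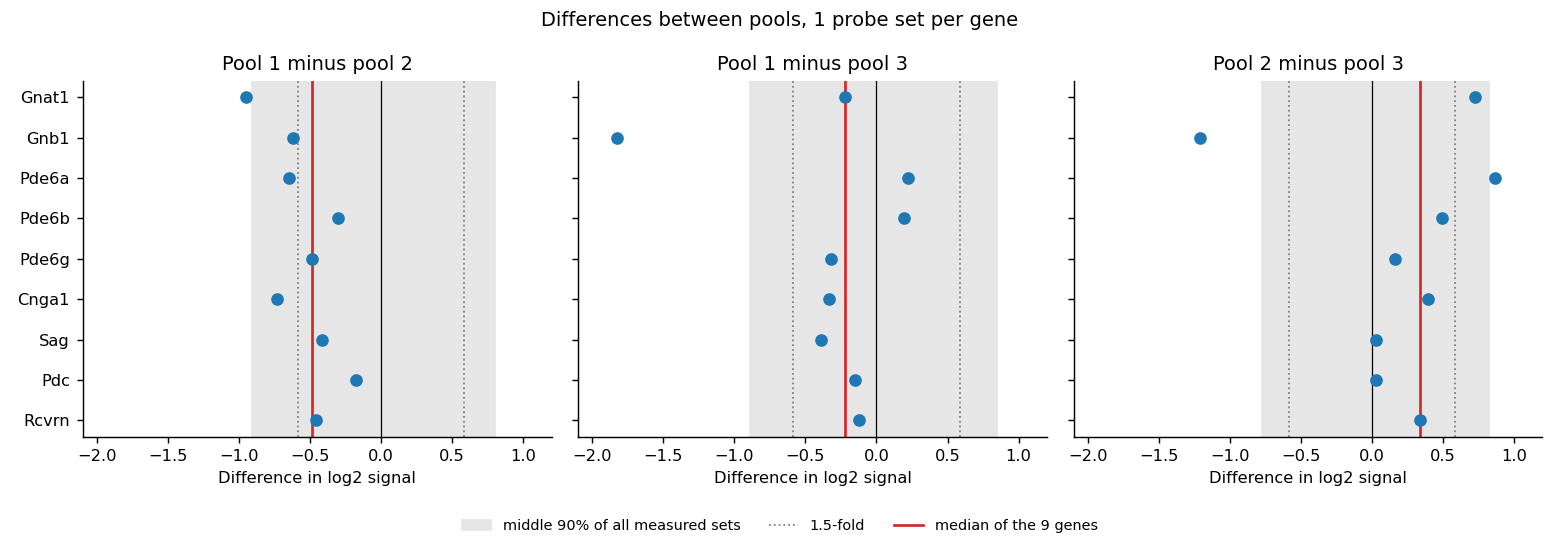
Difference in log2 signal between each pair of pools for the 9 genes, 1 probe set per gene. Each point is a gene, the red line is the median of the 9 (-0.48, -0.22 and 0.34), dotted lines mark 1.5-fold and the grey band holds the middle 90% of all 8327 measured probe sets; Gnb1 lies outside the band in both comparisons with pool 3.

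Over the 9 genes the SD of log2 signal had a median of 0.25, against 0.27 over all measured sets and 0.21 over the 25% with the highest mean signal. It ran from 0.10 for Pdc to 0.93 for Gnb1. Of the 9 genes, 8 had an SD above the trend at their signal, as did 39.7% of all measured sets; Pdc, at 0.50 of the trend, was the exception. For Rcvrn, Pde6b, Sag and Pde6g the excess was small (1.08 to 1.26 times the trend), for Cnga1 and Pde6a it was 1.43 and 1.70 times, and for Gnat1 and Gnb1 2.22 and 4.54 times.

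**Figure D4:**
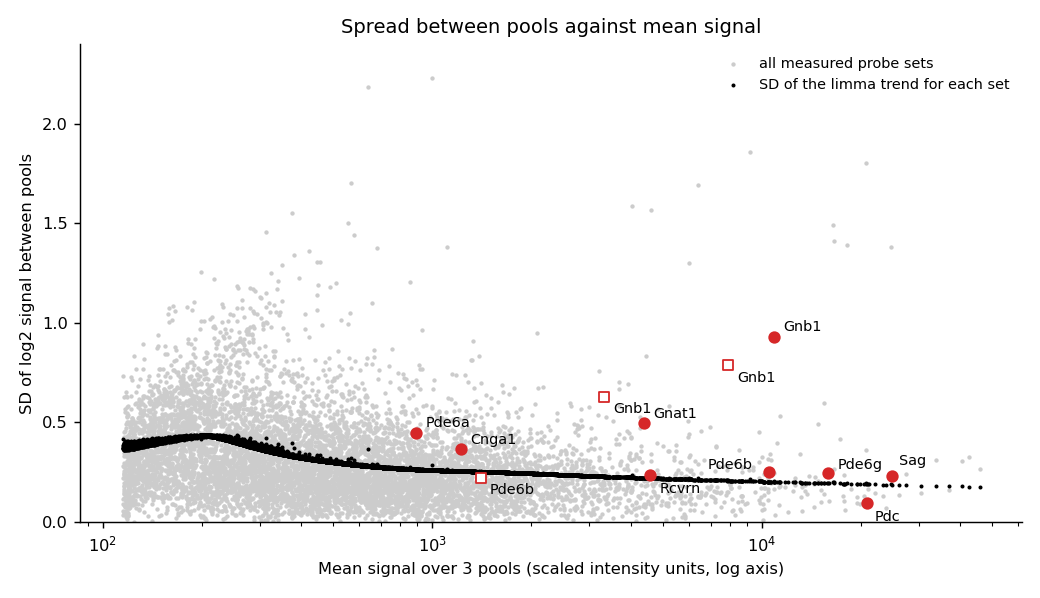
SD of log2 signal between the 3 pools against mean signal on a log axis. Grey points are all 8327 measured probe sets, black points the SD that the limma trend gives each of them, and red symbols the sets of the rod genes (filled, the set that represents the gene; open, other sets). Among the rod genes the Gnb1 sets lie highest, with SDs of 0.93, 0.79 and 0.63, and Pdc lies under the trend at 0.10.

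After centring each gene on its own mean of log2 signal, Pde6g and Sag had the most alike profiles over the 3 pools, at a distance of 0.10, and Gnb1 and Pde6a the least alike, at 1.68. The 3 genes outside these 9 closest to Gnat1 were Sox3 (212.1, 419.1 and 247.5 in pools 1, 2 and 3), Angptl4 (208.0, 413.7 and 243.6) and Ube2e3 (172.8, 344.0 and 206.9), at distances of 0.03. With 3 pools such likeness is common: 277 of 5473 genes (5.06%) lay within 0.3 of Gnat1. Within the same distance of Gnb1 lay 4 (0.0731%), the closest being Olfr93 (155.5, 239.7 and 488.0), Ephb3 (142.2, 199.7 and 422.4) and Pak1ip1 (395.5, 642.5 and 1173.2), at 0.15, 0.18 and 0.25. The distance was not scaled by spread. These shares therefore reflect the SDs of Gnat1 (0.50) and Gnb1 (0.93) too, and not the order of pools alone.

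Of 13 further genes of the rod cascade, 5 had a probe set with their symbol alone, all 5 were above the floor in every pool, and none was called variable (limma, adjusted p = 0.99 for each). Guca1a, a calcium-dependent activator of guanylate cyclase, had 1251.2, 1606.7 and 1759.6 in pools 1, 2 and 3. Gucy2e, the cyclase that restores cyclic GMP, had 476.6, 431.6 and 352.8, the reverse order. Pde6d, which carries lipid-modified proteins such as the catalytic phosphodiesterase subunits, had 1734.3, 1806.3 and 2164.1. Rgs9, which speeds the shut-off of transducin, had 162.3, 167.0 and 121.0, the last of these 1.01 times the floor, and its partner Gnb5 had 905.2, 1264.1 and 1295.4. Of these 5, 1 was highest in pool 2, against 8 of the 9 main genes. Their median log2 difference was -0.06 between pools 1 and 2 (pool 1 minus pool 2) and -0.04 between pools 2 and 3 (pool 2 minus pool 3).

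The cone counterpart of Gnat1 had the same order of pools. Gnat2, the alpha subunit of cone transducin, had 923.3, 1596.4 and 1146.7 in pools 1, 2 and 3, so that pool 2 was 1.73-fold above pool 1 and 1.39-fold above pool 3 (limma, adjusted p = 0.99). Gnb3, the beta subunit of cone transducin, ran otherwise, at 6586.4, 4756.8 and 6497.0, with pool 2 the lowest. The cone channel gene Cnga3 was under the floor in all pools. Over the 5 measured of 6 cone genes with a probe set, the median difference was 0.11 for pool 1 minus pool 2, against -0.48 for the rod genes, and 2 of the 5 were highest in pool 2. The cone genes went both ways: Opn1mw, the middle-wave opsin, singled out after its values were seen, had a log2 difference of -1.13 between pools 1 and 2 and of 1.32 between pools 2 and 3, both larger in size than those of the 8 rod genes that were highest in pool 2. The difference between the medians was not tested.

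Among the other beta subunits, Gnb2 was also highest in pool 3. It had 5841.1, 4843.2 and 8986.8, so that pool 3 was at 1.54 times pool 1 and 1.86 times pool 2 (limma, adjusted p = 0.83). Gnb4 had 198.2, 137.6 and 161.5, close to the floor. Gnb5, given above, was highest in pool 3 as well, but by only 1.02-fold over pool 2.

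**Figure D5:**
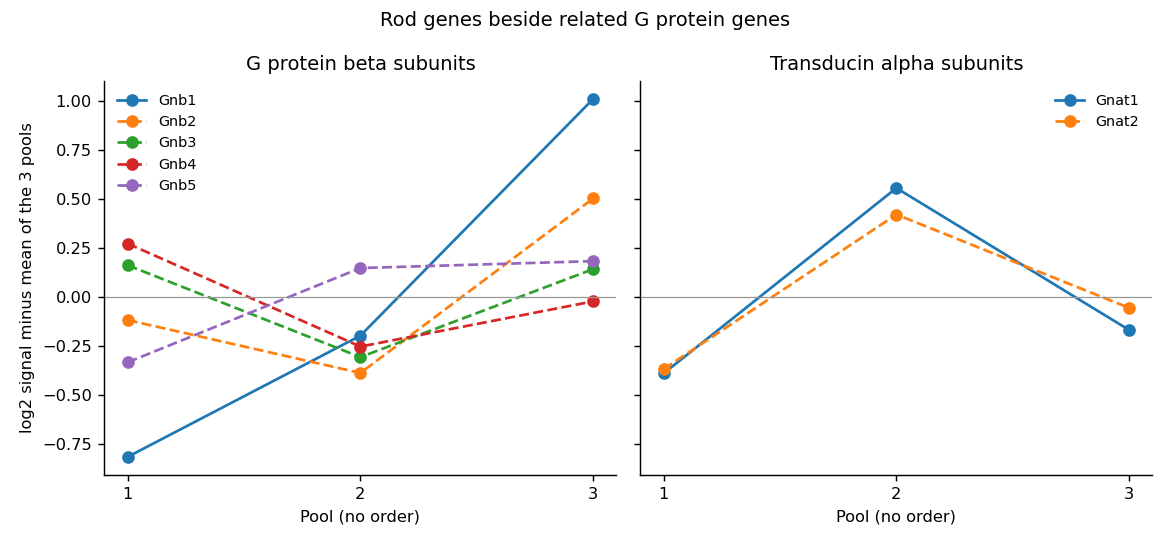
Log2 signal of G protein genes less the gene's mean over the 3 pools, with 1 probe set per gene: beta subunits on the left and transducin alpha subunits on the right. Each point is 1 array and lines join the points of a gene only to guide the eye. Gnb1, Gnb2 and Gnb5 are highest in pool 3, Gnb5 by only 1.02-fold over pool 2, and Gnat1 and Gnat2 are highest in pool 2.

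Other genes of photoreceptors are given for comparison. All 7 outer segment genes that had a probe set were measured. Of them, 4 were highest in pool 2 and 3 in pool 1, and 1 was called variable by limma. Over the 7 genes the median log2 difference was -0.06 between pools 1 and 2 and 0.14 between pools 2 and 3, in the directions used above. Prph2, singled out after its values were seen, ran opposite to most of the rod genes in the comparisons with pool 1. In pool 1 its log2 signal was 2.67 above pool 2 and 2.81 above pool 3. In pool 2 it was 0.14 above pool 3, the direction of most of the rod genes. The SD of Prph2 was 1.58, where the trend gave 0.24. Pool 1 is the one whose title lacks the rp1 tag, and a cause of this difference was not tested. Of the 5 measured genes of photoreceptor fate, 2 were highest in pool 2, and Crx, which drives photoreceptor genes, had 9534.7, 8344.9 and 7996.3 in pools 1, 2 and 3. The differences between these lists and the 9 genes were not tested.

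Lens genes, markers of a tissue outside the retina, moved between the same pools. Of 21 lens genes 12 had a probe set and 11 were measured, and all 11 were highest in pool 3 and lower in pool 2 than in pool 1. The 12 genes with a probe set summed to 94951.2, 25485.9 and 203758.1 in pools 1, 2 and 3. These sums, none of them at 0, were 1.12%, 0.308% and 2.35% of all signal on the array. They include Gja3, which was not measured. The 9 rod genes were highest, Gnb1 aside, in the pool where lens signal was lowest, and Gnb1 was highest in the pool where lens signal was highest. The full order of pools was not shared. Lens signal in pool 1 lay between the other pools, but pool 1 was the lowest for 7 of the 9 genes, Gnb1 among them. The part of lens RNA in these results was not tested. The 8 pigment epithelium genes with a probe set (4 of 11 measured) summed to 1759.6, 1712.3 and 2697.7. This sum includes Tyr, Tyrp1, Rgr and Mitf, which were not measured. The 5 blood genes with a probe set (4 of 10 measured) summed to 20651.3, 12963.3 and 10753.2, including Epb42, which was not measured. The part of pigment epithelium and blood RNA was not tested either. Of the retinal lists, 1 of 5 measured bipolar genes, 2 of 7 amacrine genes and 3 of 7 Müller glia genes were highest in pool 2.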

How the data were processed

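RNA of 3 pools was measured on U74Av2 arrays. The values deposited by the authors are linear intensities, 1 for each probe set on an array; which software made them is not given in the sources used here. Means after trimming 2% at each end were 500.26, 500.25 and 500.26, so no further scaling was applied. After dropping 1 blank row and 66 control sets, 12422 probe sets remained, 10833 with a single symbol, 396 with several and 1193 with none. For 10817 of those with a single symbol, the current symbol was looked up by gene identifier (GRCm38.p6), whether or not it differed. Probe sets carry no coordinates. Lower signals were raised to the floor before log2 was taken, and sets with a mean above the mean floor (8327) were tested. The test of variability used limma 3.58.1 (R 4.3.3) with only an intercept, a robust F fit with intensity trend to the variances, upper-tail p-values and Benjamini-Hochberg adjustment over all sets at 0.05. It was run on simulated normal data with shifts placed in pool 1 alone. That outcome is not given here, so how often the test misses differences of the size seen in these genes is not stated. Differences between pools have 1 array a side and no test. The number of arrays limits the precision. All probe sets of the 9 genes are named; other genes are those of the cascade, cone counterparts and beta subunits, the 3 nearest profiles of Gnat1 and Gnb1 among genes above the floor in every pool, and at most 2 per marker list. Genes and lists were chosen with earlier results of these data known. Python 3.11.15, numpy 2.4.6, pandas 2.3.3 and matplotlib 3.10.9 did the rest. Alternatives were quantile normalization, 2 other treatments of the floor, 2 other filters, 2 other variance fits, the mean of a gene's sets, a 2-fold threshold and leaving out each pool.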

Additional observations from a re-analysis of the deposited data

How the results depend on the processing

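No paired analysis was possible because all arrays belong to 1 group. The median differences between pools kept their sign after quantile normalization. They were -0.65 (pools 1 and 2), -0.18 (1 and 3) and 0.39 (2 and 3), where the reported values are -0.48, -0.22 and 0.34. The sign also held with log2(signal + 16) and with the mean of a gene's sets, but both are weak checks. Every representative set was at least 5.59 times the floor, so adding 16 can hardly move the medians. Taking the mean of sets alters only Gnb1 and Pde6b, and gave -0.46, -0.22 and 0.29. Leaving out the pool not compared, or lowering the floor, cannot move the medians and is no check. The number of probe sets of the 9 genes called variable, 1 in the reported analysis, was 0 after quantile normalization, 0 with a floor set at the control median, 0 with log2(signal + 16), 0 among the 25% with the highest signal, 0 with an ordinary fit, 0 with no intensity trend and 2 with no filter on mean signal, where sets held at the floor enter the fit; leaving out a pool gave 0 to 2 (limma throughout). Over all tested sets, leaving out pool 1, 2 or 3 gave 40, 10 and 4 calls. The settings named before gave 18, 15, 10, 12, 6, 0 and 52 calls over all sets, in the order listed, against 18 in the reported analysis. Where the trend was dropped no set at all was called, so that 0 says nothing particular to the 9 genes. The 52 calls were among 12422 sets. Of the probe sets of the 9 genes, 6, 4, 4, 4, 4, 2 and 4 had an unadjusted p under 0.05 (limma) in the same order of settings. In the reported analysis 4 had one, namely the Gnb1 sets and the Gnat1 set, as did 445 of all 8327 sets. Without pool 3 it was 1, and none was called. Beyond 2-fold instead of 1.5-fold, 0 genes instead of 4 differed between pools 1 and 2 and 1 instead of 3 between pools 2 and 3. Leaving out a pool gave 0 to 2 genes highest in pool 1, 8 to 9 in pool 2 and 1 to 7 in pool 3; the count of 7 arises without pool 2, when pools 1 and 3 alone are ranked. The second Gnb1 set passed with no filter (limma, adjusted p = 0.0011) and without pool 1 (0.01), and its adjusted p over the alternatives ran up to 0.99. The other 10 tested sets, the first Gnb1 set aside, passed under none of the 10 alternatives. The number of arrays (3) limits every value here.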
